A study of Mus musculus with 5 samples.

Results

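In dendritic cells treated with SAHA, 515 of the 8551 regions in the STAT3 list (6.02%) overlapped no STAT3 region of diluent-treated cells, lay at an H3K4me3 region of the SAHA cells and had a midpoint more than 5 kb from the start of the gene listed for them. They are called SAHA-only distal regions here. Of the STAT3 regions in SAHA, 8315 (97.2%) overlapped none in diluent, 2158 of these overlapped H3K4me3 by at least 1 bp, and 515 of those were distal. They lay at 516 H3K4me3 regions, of which 421 (81.6%, exact Clopper-Pearson 95% interval 78.0 to 84.8) overlapped a region of the diluent H3K4me3 list and 95 did not. The interval, like every interval below, covers counting error only. The regions were chosen by their STAT3 overlap, the presence of H3K4me3 in SAHA and the distance, so these counts describe the choice and test nothing.

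The study used chromatin immunoprecipitation with sequencing (ChIP-seq), which maps where a protein or histone mark sits by sequencing the DNA pulled down with an antibody. Bone marrow from C57BL/6 females, 10 weeks old, was cultured in GM-CSF plus IL-4 (10 ng/mL of either) over 7 days. Cells bearing CD11c were then isolated at a labelled purity of 95%. They were held in RPMI without serum and received diluent or SAHA, at a dose labelled 500 nm, for 12 h, and their chromatin was sheared to 200 to 500 bp. There was 1 library for each of 5 groups. STAT3 and H3K4me3 were each mapped in both conditions, and IgG, an antibody with no target in the cells, in diluent only. With 1 library per group, no difference between conditions has a replicate check or a p-value.

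STAT3 is a transcription factor that cytokine receptors activate through JAK kinases. It binds DNA as a dimer and in dendritic cells is known for restraining inflammatory cytokine genes. H3K4me3, trimethylation of lysine 4 of histone H3, marks active promoters, and away from annotated starts it can mark unannotated promoters or strong enhancers. SAHA (vorinostat) inhibits histone deacetylases, enzymes that remove acetyl groups from histones and from other proteins, STAT3 among them.

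The libraries held 17810183 to 25013431 filtered tags, the lowest for STAT3 in SAHA and the highest for STAT3 in diluent. The STAT3 lists therefore come from the deepest and the shallowest library, and the part of depth in the calls was not tested. The dendritic cell markers whose start the lists give had H3K4me3 within 5 kb in both conditions, 9 of 9, as did 6 of 6 macrophage and monocyte markers. The count was 3 of 3 for erythroid markers, 2 of 3 for granulocyte and mast cell markers, 1 of 2 for T cell markers, 0 of 2 for B cell markers and 0 of 1 for NK cell markers, again in both conditions. A start is known here only where some region was assigned to the gene, so these counts favour marked genes.

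The H3K4me3 regions of 15 SAHA-only distal regions held a start given in the lists. Promoters of 3 such genes are printed because STAT3 or H3K4me3 regions at them are described below. The midpoint of the STAT3 region lay 5534 bp from the listed start of Socs3, 9298 bp from that of Irf8 and at that of Zfp846. The sequences are the 250 bases before the start, from RefSeq on GRCm38.p6, 5′ to 3′ on the gene's strand. They are not the STAT3 regions themselves, whose coordinates are on mm9. Capitals mark TTCNNNGAA, the letters of the STAT dimer motif, which read the same on both strands.
Socs3, chr11:117969367-117969616, minus strand: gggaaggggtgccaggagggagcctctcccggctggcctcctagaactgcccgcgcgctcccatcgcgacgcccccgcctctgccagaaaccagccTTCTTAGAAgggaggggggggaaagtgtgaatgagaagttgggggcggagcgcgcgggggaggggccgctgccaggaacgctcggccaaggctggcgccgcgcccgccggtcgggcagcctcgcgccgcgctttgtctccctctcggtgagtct
Irf8, chr8:120736108-120736357, plus strand: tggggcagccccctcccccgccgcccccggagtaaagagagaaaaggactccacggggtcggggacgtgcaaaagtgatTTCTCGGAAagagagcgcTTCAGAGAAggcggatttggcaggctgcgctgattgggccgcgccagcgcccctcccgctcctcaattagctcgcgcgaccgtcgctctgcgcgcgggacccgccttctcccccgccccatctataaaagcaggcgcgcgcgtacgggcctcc
Zfp846, chr9:20581078-20581327, plus strand: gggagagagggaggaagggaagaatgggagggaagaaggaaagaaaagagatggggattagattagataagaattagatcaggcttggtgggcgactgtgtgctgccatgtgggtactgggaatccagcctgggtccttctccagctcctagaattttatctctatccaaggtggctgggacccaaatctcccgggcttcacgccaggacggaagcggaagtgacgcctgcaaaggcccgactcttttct
The motif stood once before the Socs3 start and at 2 places, not overlapping, before the Irf8 start printed. Of the 16 genes with such a start, 13 matched a RefSeq promoter. In the window of 300 bases that runs 50 past the start, 2 of the 13 genes held the motif in at least 1 promoter. Irf8 has 2 promoters in RefSeq, and only the 1 with the motif is printed. Of all 32851 promoters in that table, 8.3% held it. That share counts promoters and the other counts genes, so they are not on the same scale. A match is a description of letters and not a site.

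Scores, which are the authors' own value for each region, ran from 30 to 170.03 with a median of 38.44, and 167 of the 515 lay under 35, close to the list's lowest score of 30. Only 57 scored 60 or more. The regions were 431 to 4183 bp long (median 738). Midpoints lay 5.03 to 368.8 kb from the listed start (median 19.9), with 135 within 10 kb and 39 beyond 100 kb. By position, 239 lay upstream of the listed transcript, 138 inside it and 138 past its end. Scores over 100 occurred both near the limit, at Fcgr3 5.98 kb away, and far from it, at Arid1b 368.8 kb away.

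**Figure D1:**
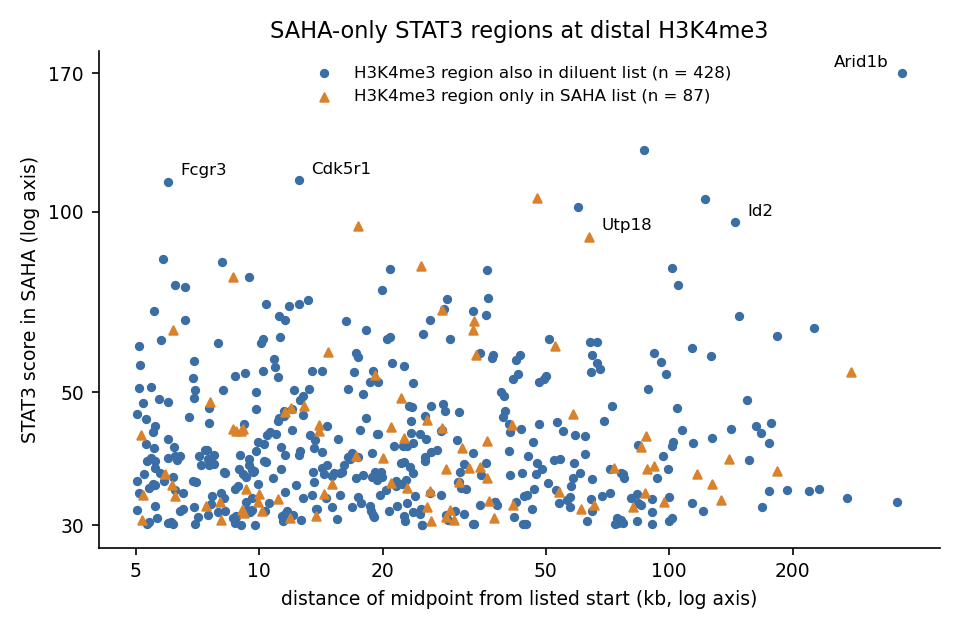
Each point is 1 of the 515 SAHA-only distal STAT3 regions, by distance of its midpoint from the listed start (kb, log axis) and STAT3 score in SAHA (log axis). Circles are the 428 regions whose H3K4me3 region was also in the diluent list and triangles the 87 whose was not; Arid1b at 170.03 is highest and lies 368.8 kb out.

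At the 5 kb limit, the nearest regions inside the set were those listed for Mir200c (5026 bp, score 45.99) and AK002860 (5033 bp, score 35.62). Just outside it were those of 4930471M23Rik (4954 bp, score 31.7) and Traf2 (4944 bp, score 30). The starts known here are those the 4 lists assign, and the 515 were chosen to lie over 5 kb from their own. A low share near any listed start was therefore largely set by the choice. It does not show distance from every annotated start. Of the 515, 2 had any start of the 4 lists within 5 kb (0.388%, 0.0471 to 1.396). In both, the midpoint lay within 1 bp of that start: the region listed for 5730577I03Rik, 26.1 kb away, sat on the start of Zfp846, a zinc finger gene, and the region listed for AK211473 sat on the start of Mrps28, a protein of the mitochondrial ribosome. By coordinates these 2 are promoter regions. A further limit is the H3K4me3 region itself, which for 21 of the 515 had its own midpoint within 5 kb of its listed start.

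The STAT3 regions were mostly embedded in the mark. In 247 of 515 (48.0%) the STAT3 region lay wholly inside the H3K4me3 region, and in 444 the STAT3 midpoint did. Only 16 had under 10% of their length in it. Pairs of regions sharing 1 H3K4me3 region accounted for 20 of the 515.

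Most of this H3K4me3 was on record without SAHA. Counted over STAT3 regions, 428 of 515 (83.1%, 79.6 to 86.2) lay at a mark already in the diluent list, where 82.2% of all SAHA H3K4me3 regions and 68% of the distal ones were. The distal comparison is not level, since the H3K4me3 regions at SAHA-only distal STAT3 had a median score of 437.6 and a length of 1372 bp, against 192.3 and 988 bp for distal H3K4me3 with no SAHA STAT3 region. Within score classes the shares lay closer. At scores of 50 to 100 the share was 36.2% of 94 regions (26.5 to 46.7) against 30.4% of 2801, and at 100 to 300 it was 74.0% of 127 (65.5 to 81.4) against 66.8% of 3251. At 300 to 1000 it was 98.2% of 114 (93.8 to 99.8) against 92.8% of 2128 (91.6 to 93.9), and from 1000 up it was 100% of 181 against 99.3% of 1560. The share at SAHA-only distal STAT3 was the higher in each class. The intervals overlapped in each class, barely so at 300 to 1000. Such an overlap does not show that the shares are equal, and their difference was not tested.

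**Figure D2:**
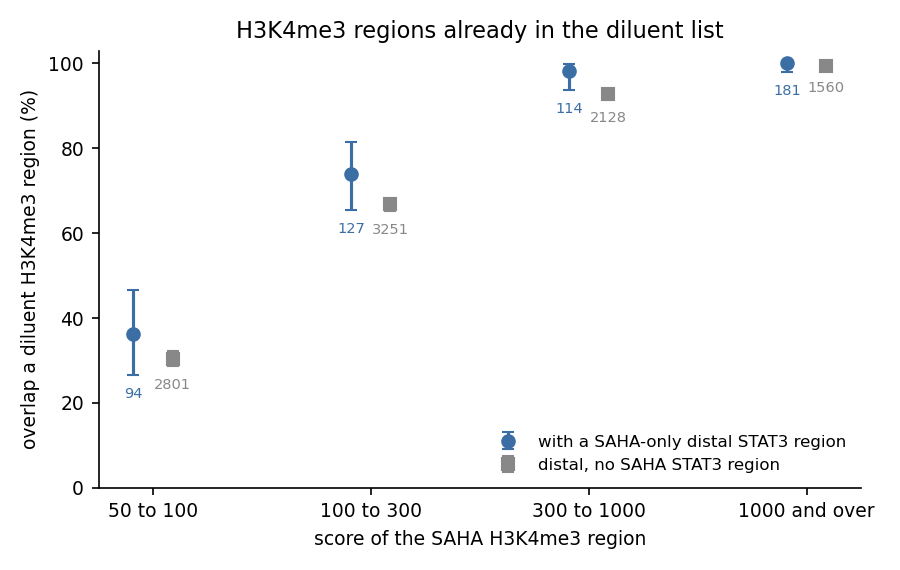
Share of SAHA H3K4me3 regions (%) that overlap a diluent H3K4me3 region by at least 1 bp, by score of the SAHA region, with exact 95% intervals and the number of regions under each point. Circles are regions with a SAHA-only distal STAT3 region and squares are distal regions with no SAHA STAT3 region; both rise from under 40% to about all with the score.

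Nearer to starts the share was higher. For the 1643 SAHA-only STAT3 regions at H3K4me3 within 5 kb of the listed start, 98.1% lay at a mark in the diluent list, and their median STAT3 score was 38.97. For the 64 distal STAT3 regions that were shared with diluent and lay at H3K4me3, the share was 81.2% (69.5 to 89.9), an interval that holds the 83.1%. In the other direction, 244 diluent STAT3 regions overlapped none in SAHA and lay at distal H3K4me3 of diluent, 6.96% of the diluent list. Of these, 227 (93.0%) had their mark in the SAHA list too. The same share over all diluent H3K4me3 regions was not computed. The SAHA H3K4me3 list is the larger (25723 regions against 22255), so this share cannot be set against those above.

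The 87 STAT3 regions at H3K4me3 found only in SAHA lay at weaker marks. The median score of their H3K4me3 regions was 85.97 (50.22 to 460.53) against 724.34 at the other 428, and their median length was 759 against 1558 bp. Of these 87, 10 overlapped a region called in the diluent H3K4me3 library without a control. The 10 highest STAT3 scores among the 87, at named genes, were listed for Utp18 (90.83), Psap (81.06), Eif2c3 (77.89), Rgag4 (65.76), Tap2 (63.60), Rasa3 (63.54), Tmprss6 (58.26), Blm (57.77), Prkce (54.08) and Lrrfip1 (53.51). Tap2, a subunit of the transporter that loads peptides for MHC class I, had its region 6.16 kb inside the gene. Psap, the precursor of the saposins, had its region 24.8 kb upstream, where the mark held 37 tags in SAHA. The nearest diluent H3K4me3 to these 10 was 1388 bp away at Tmprss6 and 61644 bp away at Utp18.

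At the 356 H3K4me3 regions that paired 1 to 1 between the lists and whose edges matched those of the tables with tag counts, tags could be compared. Each count was scaled to the filtered tags of its library, and the log2 ratio is SAHA over diluent. The median was 0.16, with a range from −1.70 to 2.91, against −0.01 over all 17704 pairs and 0.14 over the 5622 distal pairs with no SAHA STAT3 region. At least 2-fold more tags in SAHA occurred at 31 of the 356 (8.71%, where all pairs gave 4.96% and the distal pairs 9.20%), and at least 2-fold fewer at 6 (1.69%, against 1.01% and 1.67%). The interval lay above 0 at 115 (32.3%, against 24.2% of all pairs and 29.3% of the distal pairs) and below 0 at 64 (17.98%, against 24.3% and 13.1%). Intervals below 0 were thus a smaller share than over all pairs and a larger one than over the distal pairs. For 2-fold falls, at only 6 regions, the share was above that over all pairs and close to that over the distal pairs. Per kb of called region, the median was 0.03, against −0.07 over all pairs and 0.08 over the distal pairs, so it lay below the distal pairs on this scale. By this measure 2 regions were 2-fold higher (all pairs 0.779%) and 1 was 2-fold lower (all pairs 0.175%). The median called length at these pairs was 1568 bp in SAHA and 1434 bp in diluent.

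**Figure D3:**
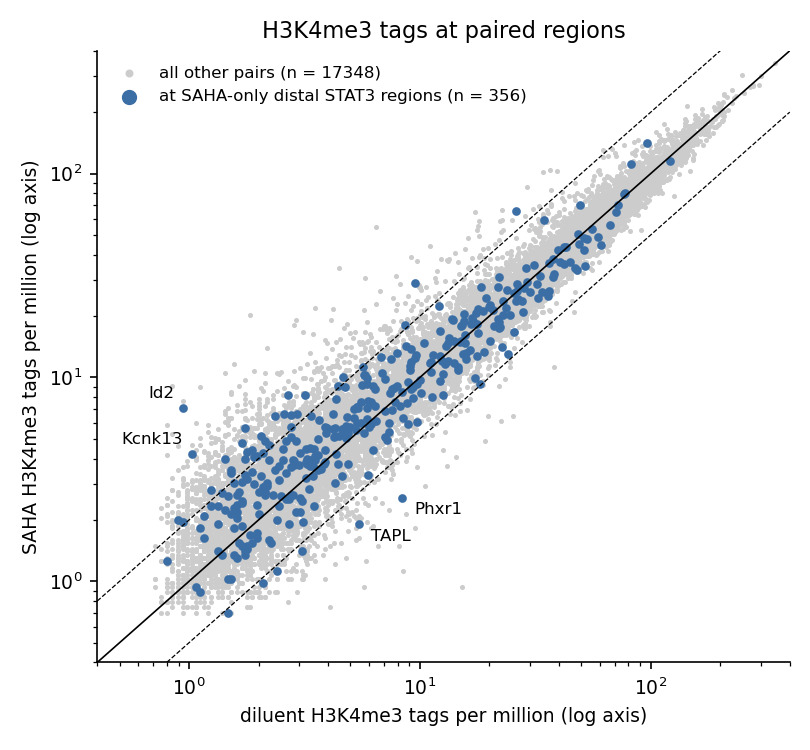
H3K4me3 tags, scaled to the filtered tags of each library, in diluent (x) and in SAHA (y; log axes) at regions paired between the lists; large points are the 356 pairs at SAHA-only distal STAT3 regions and small points all other pairs. The solid line marks equal values and the dashed lines 2-fold; 31 large points lie above the upper line and 6 below the lower one.

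The largest rises were at Id2, Kcnk13, Ildr1, Socs3 and Best1. Id2 encodes an inhibitor of basic helix-loop-helix factors that dendritic cells need for their development. The region listed for it, 144.4 kb upstream at chromosome 12, 25924893 to 25925816, had a STAT3 score of 96.07, and the H3K4me3 there had 21 tags in diluent and 151 in SAHA. The log2 ratio was 2.91 (2.25 to 3.65), and 0.75 per kb, because the called region was 473 bp in diluent and 2119 bp in SAHA. At Kcnk13, a potassium channel gene, 23 tags stood against 90 (2.03, 1.36 to 2.76). At Ildr1, 39 stood against 121 (1.70, 1.17 to 2.26). At Best1, 213 stood against 624 (1.62), while the ratio per kb was −0.15 and the mark was listed for Fth1, the ferritin heavy chain gene. Per kb, Id2, Kcnk13, Ildr1 and Socs3 kept a positive ratio and Best1 did not.

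The largest falls were at Phxr1, TAPL, Prdm1, Igsf9 and Col3a1. Phxr1 had 187 tags in diluent and 55 in SAHA (−1.70, −2.16 to −1.26), and TAPL had 122 and 41 (−1.51, −2.06 to −0.99). Prdm1, which encodes the repressor Blimp-1, had 69 and 30 at a mark 163.2 kb upstream (−1.14, −1.81 to −0.50). Igsf9 had 47 and 21 (−1.10), and Col3a1 had 33 and 15 (−1.07, −2.06 to −0.15). Per kb the Col3a1 ratio was 0.31, so its direction depends on the length of the called region. At Igsf9 the ratio per kb was −0.17, where the called region was 831 bp in diluent and 437 bp in SAHA. The Prdm1 mark was also shorter in SAHA, 761 bp against 1338 bp in diluent.

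Among the 10 highest STAT3 scores at named genes were Arid1b (170.03), Cdk5r1 (112.88), Fcgr3 (112.18), Id2 (96.07), Utp18 (90.83), Psap (81.06), Iqgap1 (80.09), Lass6 (79.82) and Eif2c3 (77.89). Arid1b is a subunit of the BAF chromatin remodelling complex. Its region, chromosome 17, 4625827 to 4626705, lay 368.8 kb upstream, so the gene is the listed one and not a close neighbour. Of the H3K4me3 tags there, 200 were in diluent and 127 in SAHA (−0.59, −0.92 to −0.26). Called without a control, this site had 50 STAT3 tags in SAHA and 26 in diluent, so the diluent library also had a STAT3 region there by that call. Fcgr3, a low-affinity Fc gamma receptor of myeloid cells, had the longest region (4183 bp), 5.98 kb upstream, at a mark of 592 tags in diluent and 618 in SAHA (0.13, −0.04 to 0.29). Cdk5r1 had 48 and 105 tags (1.20, 0.69 to 1.72), and Lass6, a ceramide synthase gene, had 38 and 66 (0.86, 0.27 to 1.48). Per kb of called region these 2 ratios were lower, 0.52 and 0.29. High STAT3 scores thus stood beside marks with more, fewer and like numbers of tags.

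Few of the regions were called without the control. Called without the IgG control, the SAHA STAT3 library had a region over 27 of the 515 (5.24%, where all SAHA STAT3 regions gave 3.24%), with 17 to 185 tags each. Among the 5 highest of these at named genes were Arid1b with 50 tags, Fcgr3 with 101, Id2 with 26 and Utp18 with 25. The diluent library called the same way had a region over 6 (1.17%, all 1.05%), among them Rpl14, chosen here after its values were seen, with 33 tags in diluent and no such region in SAHA. An IgG region lay over 4 of the 515 (0.777%, all 0.503%): AK138323, Arhgap21, Gm7102 and Cr2. At Cr2 the STAT3 tags were 134 in SAHA and 125 in diluent, and IgG had 101. Per 1000000 filtered tags these are 7.52, 4.997 and 5.34, and the fold enrichments over nearby background were 20.1, 17.65 and 17.06. STAT3 in diluent thus lay below IgG by tags per 1000000 and slightly above it by fold enrichment. At Arhgap21 the tags were 58, 41 and 31 in the same order, or 3.26, 1.64 and 1.64 per 1000000. The fold enrichments there were 12.5, 6.88 and 5.33. Each library's region was called with its own edges, so these counts need not cover the same bases.

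A STAT3 region absent from the diluent list was in some cases next to one. Of the 515, 11 lay within 1 kb of a diluent STAT3 region and 47 within 10 kb, while 285 were over 100 kb away. The 5 nearest at named genes were Socs3 and Magi2 at 32 bp each, Lilrb4 at 135, Klrb1c at 174 and Yy1 at 292. How far the absence of an overlap at these depends on where the edges were drawn was not tested. At Klrb1c the diluent STAT3 region was itself overlapped by another SAHA STAT3 region, of score 30.97.

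Socs3, the feedback inhibitor of STAT3 signalling and one of its known targets, had 3 regions. The first, 5.53 kb from the start and past the gene's end, scored 68.25 and lay 32 bp from a diluent STAT3 region of score 32.62. It was in an H3K4me3 region of 7656 bp that covers the start and spans 2 diluent regions of 4951 and 1559 bp. The second, 6.91 kb upstream with a score of 32.19, lay at a mark with 60 tags in diluent and 176 in SAHA (1.62, 1.19 to 2.07, and 0.85 per kb), 1071 bp from a diluent STAT3 region. The third, 22.9 kb beyond the start with a score of 34.60, touched by 15 bp a mark of 776 bp found only in SAHA. A further STAT3 region, 8.95 kb from the start, was shared by both conditions, with a score of 61.43 in SAHA and 62.63 in diluent, so the gene's STAT3 regions were not confined to SAHA.

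Lilrb4, an inhibitory receptor of tolerogenic myeloid cells, also had 3. Of these, 1 lay 25.4 kb upstream (score 45.64), 135 bp from the diluent STAT3 region of score 147.22, the highest of the diluent list, at a mark of 493 tags in diluent and 666 in SAHA (0.50, 0.33 to 0.67). The other two (38.86 and 40.33) lay at marks found only in SAHA, of 1642 and 2595 bp. A diluent STAT3 region at the Lilrb4 start (score 46.80) had none in SAHA over it. Ptprj and Med13l had 3 each as well, and 1700019O17Rik and A530013C23Rik, unnamed transcripts given because they had the most, had 4 each. In all, the 515 regions were listed for 468 genes, 39 of which had 2 or more.

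**Figure D4:**
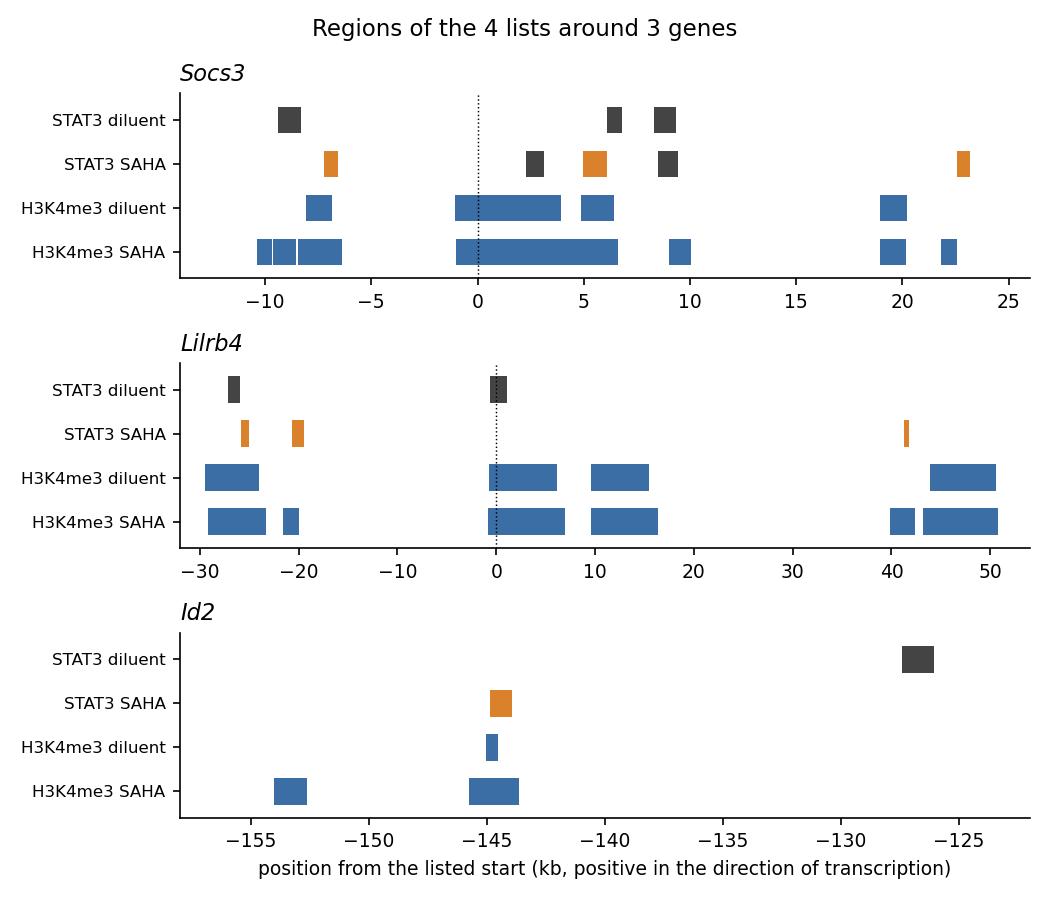
Regions of the 4 lists around Socs3, Lilrb4 and Id2, by position from the listed start (kb); orange bars are SAHA-only distal STAT3 regions, dark bars other STAT3 regions and blue bars H3K4me3, and the dotted line is the start. At Socs3 the SAHA H3K4me3 region over the start is 7656 bp long where diluent has 2 regions, and at Id2 the mark 144.4 kb upstream is 2119 bp in SAHA and 473 bp in diluent.

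Joined marks as at Socs3 were found at 22 of the 516 H3K4me3 regions (4.26%, 2.69 to 6.38), which each overlapped 2 or more diluent regions. All SAHA H3K4me3 regions gave 2.36%, and distal ones with no SAHA STAT3 region 1.396% (1.17 to 1.65). At scores from 1000 up the shares were 9.39% and 4.62%. The opposite, a diluent region overlapped by more than 1 SAHA region, involved 18 of the 516 (3.49%, against 5.82% of all and 3.29% of distal ones with no SAHA STAT3 region). The longest was at Irf8, the transcription factor of cDC1 development, where 14314 bp in SAHA spanned diluent regions of 9571 and 1099 bp. Uvrag had 9907 bp over 4 diluent regions. Cx3cl1, Bcl3, Actr3, Malat1, Chd7 and Bach2 were others. Uvrag, Cx3cl1, Actr3 and Malat1 were chosen after their values were seen. Of the joined marks named here, those at Socs3, Irf8, Uvrag, Cx3cl1, Bcl3, Actr3 and Malat1 held a listed start. Those at Chd7 and Bach2 did not. The comparison with distal regions is therefore not level: those were distal by their own midpoint, as were 494 of the 516. The H3K4me3 regions at SAHA-only distal STAT3 were also longer (median 1372 against 988 bp). The parts of length and of marks over starts were not tested.

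By function, 50 of the 606 listed genes that occur in any of the 4 lists had a SAHA-only distal region (8.25%), where 468 of all 17024 genes did (2.75%). The lists hold immune, signalling and chromatin genes chosen with earlier results in view, and no enrichment was computed. The 50 genes took 61 of the 515 regions, where 5.46% of all SAHA STAT3 regions were assigned to a listed gene. Of these 61, 46 lay at marks already in the diluent list and 15 at marks only in SAHA. Over all 515 the counts were 428 and 87.

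Known STAT3 and cytokine targets had 6 of 35: Bcl2, Bcl3, Cebpd, Hif1a, Pim1 and Socs3. Cebpd, a transcription factor of the acute phase, had 39 H3K4me3 tags in diluent and 71 in SAHA at a region 69.3 kb past its start (0.93, 0.35 to 1.53). That mark was called over 898 bp in diluent and 1379 bp in SAHA. Hif1a, the oxygen-regulated factor, had 26 and 45 tags (0.86, 0.13 to 1.61, and 0.59 per kb) 19.5 kb upstream. Pim1, a survival kinase, had its region 53.9 kb upstream in a mark of 6609 bp. In the JAK-STAT pathway 2 of 39 had one, Socs3 and Stat4, the latter at a mark found only in SAHA.

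The list of DNA methylation and chromatin remodelling genes had 6 of 38, all of them remodellers: Arid1a, Arid1b, Baz2b, Chd7, Chd8 and Chd9. All 7 of their regions lay at marks already in diluent, where 83.1% of the 515 did. Arid1a had 69 tags in diluent and 53 in SAHA (−0.32, −0.86 to 0.22), and Chd9 had 159 and 210 (0.47, 0.16 to 0.77). Histone acetylation enzymes had 2 of 32 (Ncoa1 and Ncoa3), and H3K4 methylation enzymes and readers 0 of 23. The list of cell cycle inhibitors and responders to HDAC inhibition had 3 of 20. Of these, Gadd45b, a stress sensor, went from 82 to 133 tags (0.76, 0.36 to 1.18, and 0.37 per kb). Btg2 and Klf10 did not differ beyond counting error (0.05 and 0.10).

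Myeloid signalling genes had 8 of 61, the highest scores being at Prkcd, Prkce, Elmo1, Pik3ap1, Ptprj and Fyb. Of their 10 regions, 5 lay at marks found only in SAHA, where 16.9% of the 515 did. The counts are small and were not tested. Dendritic cell identity genes had 3 of 31: Id2, Irf8 and Runx1, the last with 72 and 82 tags (0.25, −0.22 to 0.73). Regulatory dendritic cell molecules also had 3 of 31: Irg1, which makes itaconate, Hmox1, the heme oxygenase, and Lilrb4. AP-1, stress and interferon factors had 4 of 40 (Bach2, Egr3, Hif1a and Maf). Inhibitory, Fc, SLAM and lectin receptors had 3 of 42, where Fcgr4 went from 1158 to 753 tags (−0.56, −0.69 to −0.42). Cytokine and chemokine receptors had 3 of 43, and of these Cxcr6 went from 132 to 213 tags (0.76, 0.44 to 1.08).

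The remaining lists had few. Toll-like receptor and NF-kB signalling had 2 of 60 (Bcl10 and Tlr13), apoptosis 2 of 30 (Bcl2 and Cflar), antigen presentation 1 of 27 (Tap2), costimulation 1 of 21 (Icosl) and inflammatory cytokines and chemokines 1 of 31 (Spp1). Markers of other cells had 1 of 16 for macrophages and monocytes (Maf), 1 of 11 for T cells (Cd247), 1 of 7 for B cells (Cr2), 1 of 4 for NK cells (Klrb1c), 1 of 8 for granulocytes and mast cells (Cebpe) and 0 of 5 for erythroid cells. The Cr2 region is the one over IgG described above, and a mark listed for a gene does not show that the gene is expressed.

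**Figure D5:**
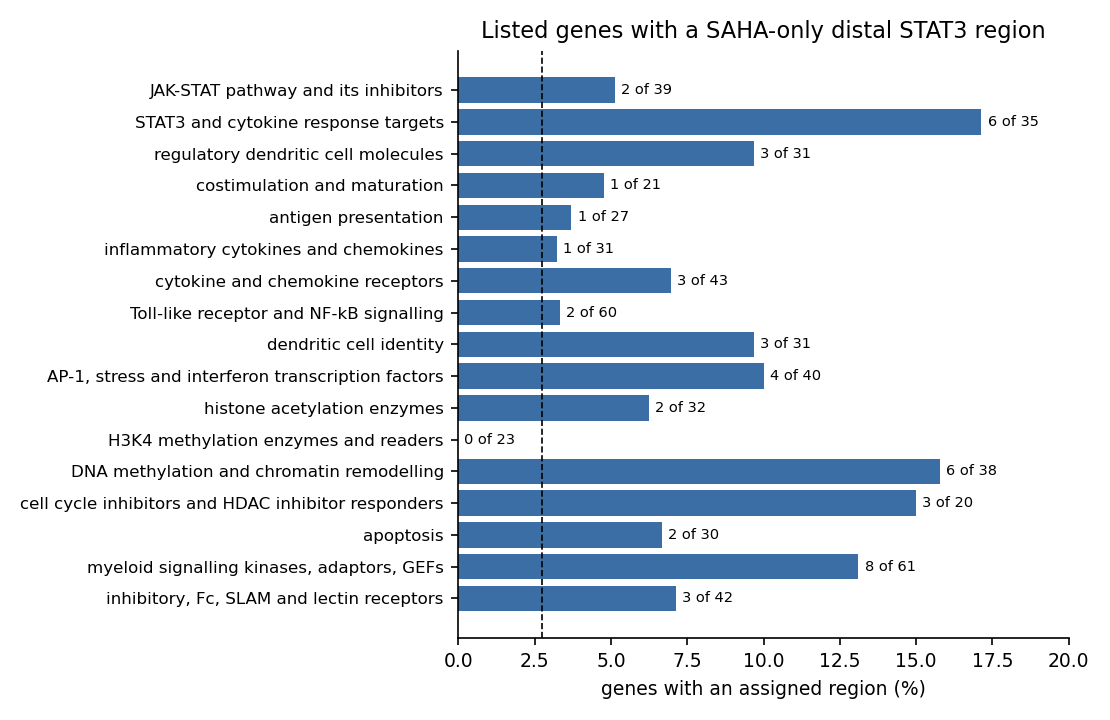
Percent of the genes of each of the 17 lists that are not cell type markers, among those found in any of the 4 region lists, that had a SAHA-only distal STAT3 region assigned, with the counts beside the bars. The dashed line is the 2.75% of all 17024 genes; of these 17, the longest bars are STAT3 and cytokine response targets (6 of 35) and DNA methylation and chromatin remodelling (6 of 38).

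MicroRNA genes were listed for 8 regions at 7 genes, and the mature sequences of 3 of them are shown because their marks lay on either side of equal tags. Sequences are RefSeq on GRCm38.p6, 5′ to 3′, with the seed (bases 2 to 8) in capitals. The data do not tell the arms apart.
miR-146b-5p: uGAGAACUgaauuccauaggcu
miR-146b-3p: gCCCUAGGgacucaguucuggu
miR-148a-3p: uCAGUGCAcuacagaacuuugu
miR-148a-5p: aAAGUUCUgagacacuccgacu
miR-200c-3p: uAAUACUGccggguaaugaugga
miR-200c-5p: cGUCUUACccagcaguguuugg
No seed was shared among the 13 mature sequences of the 7 genes. Mir200c, which targets the Zeb repressors, had a STAT3 score of 45.99 and 50 tags of H3K4me3 in diluent against 100 in SAHA (1.07, 0.56 to 1.59). Mir148a had 2 regions 96.4 and 99.96 kb away, and at the nearer one 540 tags stood against 280 (−0.88, −1.10 to −0.67). Mir146b, a restrainer of Toll-like receptor signalling, had a region 6.90 kb past its start with a score of 52.74, where 746 and 673 tags did not differ beyond counting error (−0.08, −0.24 to 0.07).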

How the data were processed

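The submitters' processing notes name BWA and the mm9 build, without a BWA version. Single-library regions came from MACS 1.4.0rc2 with no control (p-value limit 1e-05, up to 2 duplicates kept at a position), per the file headers. Per the file headers, those tables give the tag count of each region and the fold enrichment (its ratio to nearby background). The authors' deposited lists against IgG give a score and 1 gene with its transcript for each region, while the settings behind them are not stated in the labels or headers used here. Scores were used for ranking and filtering inside a list, never across lists. The deposited sequencing reports gave reads and duplicate percent.

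Regions were compared with bedtools 2.31.1 at an overlap of at least 1 bp, and coordinates are 1-based. Analyses used Python 3.11.15, pandas 2.3.3, numpy 2.4.6, scipy 1.17.1 and matplotlib 3.10.9. Shares have exact Clopper-Pearson 95% intervals, and tag ratios exact conditional binomial ones, for counting error only. Tested on simulated Poisson counts for 17704 H3K4me3 pairs, the ratio gave an interval above 0 at 198 of 200 regions raised 2-fold. There 95.6% of intervals covered the true value. The interval assumes such counts, so coverage near 95% was built in and checks the computation only. Variation between libraries and effects of called length were not simulated. STAT3 tags were not compared over the set, since few regions had them in both libraries. They are given at single sites only.

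The members and the 23 gene lists (664 genes) were chosen with earlier results of these data known. Named genes were the 10 highest STAT3 scores; the 10 highest at marks only in SAHA; the 5 largest and smallest tag ratios; listed genes, of which the text names those it describes; those at the 5 kb limit; the 5 nearest to diluent STAT3; those over IgG; and the 5 highest with a single-library region. Predicted genes were passed over except at the limit and where few regions made up a count. 1 gene that the rule names is not reported here. Of 468 listed genes, 401 had a RefSeq symbol. 1 of the 8552 regions in the SAHA STAT3 list, assigned to Ido1, was left out because its entry contradicts itself (see the closing observations); it is not among the 515 either way. Alternatives to the overlap, distance, score and list size are given under the dependence on processing.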

Additional observations from a re-analysis of the deposited data

How the results depend on the processing

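Each result had a spread set for it, and for counts this was wide, since 699 and 380 regions against 515 lay within it. Counts and shares have no direction that could reverse. Only the median log2 H3K4me3 ratio has one, and no alternative reversed it. Of 30 alternatives, 24 stayed within the spread set for their result. The 5 of them that concern the Ido1 entry, the H3K4me3 midpoint (for 2 results), the diluent H3K4me3 calls without control and the diluent STAT3 calls in place of IgG were chosen after seeing the data. The number of regions was 443 with at least 50% of the STAT3 region at H3K4me3, 699 beyond 2 kb and 380 beyond 10 kb. It fell from 515 to 223 at a STAT3 score of at least 40 and to 282 when the SAHA list was reduced to as many top regions as the diluent list. The share at H3K4me3 already in diluent rose from 83.1% to 90.4% with the SAHA H3K4me3 list reduced in the same way. The share with a start of the 4 lists within 10 kb was 26.4%, against 0.388% within 5 kb, the limit used to choose the regions. The median log2 H3K4me3 ratio fell from 0.15 over 361 STAT3 regions to 0.023 per kb (−0.022 to 0.073). Listed genes with a region fell from 50 to 25 at a score of at least 40. No paired analysis was possible because each group has 1 library. For the same reason no replicate could be left out. Of the 515 scores, 167 lie under 35, where the list starts at 30. The part of depth was not tested, and a region missing from the diluent list is not shown to lack STAT3. The IgG control came from diluent cells only, and its part in the SAHA calls was not tested.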

Other observations

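The entry left out of the SAHA STAT3 list is assigned to Ido1, which encodes the enzyme that starts tryptophan breakdown in regulatory dendritic cells. It lies on chromosome 8 at 25708146 to 25708770 (mm9) with a score of 60.58. Its region number, 10442, also belongs to a second entry on another chromosome. It is the only entry of 8552 whose listed distance (−875 bp) differs by more than 1000 bp from its own coordinates, which put it 13844 bp from the start it gives. It is also the only entry out of order along its chromosome by region number. The SAHA STAT3 library called without a control had no region there. The nearest SAHA H3K4me3 region was 937 bp away and the nearest diluent STAT3 region 181410 bp away. How the entry came about was not tested, and with it kept the count of SAHA-only distal regions was still 515.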
